A study of Mus musculus with 6 samples.

Results

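The peroxiredoxin family of the mouse, 6 genes named Prdx1 to Prdx6, was followed in blood-forming stem cells from a control group and from a Vav-Cre group whose beta-catenin gene was floxed. The members were all probe sets of the deposited table that the platform annotation assigns to exactly 1 gene, that gene being 1 of these 6. This gave 42 of the 212097 single-gene probe sets of the table, and 6 of its 20352 genes. The family was taken up with earlier results of these arrays known, among them higher values of Prdx1, Prdx3 and Prdx4 in the floxed group. The difference between the groups is therefore given for the members as a description, without a test.

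Peroxiredoxins are abundant enzymes that reduce hydrogen peroxide and organic peroxides through a reactive cysteine. Prdx1 to Prdx4 are typical 2-Cys enzymes, which work as dimers and are recharged mainly by thioredoxin, while Prdx5 resolves its disulfide within 1 chain and Prdx6 is a 1-Cys enzyme recharged with glutathione. Prdx1 and Prdx2 act in the cytosol, Prdx3 in mitochondria, Prdx4 in the endoplasmic reticulum, and Prdx5 in several compartments. In blood formation the family is known for protecting red cells, where Prdx2 is among the most plentiful proteins, and stem cells are known to be sensitive to peroxide.

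Total RNA of bone marrow stem cells was measured on 6 arrays, with 100 ng labelled per array. Per the labels, the cells were sorted as positive for c-Kit and Sca-1, negative for lineage markers and negative for CD34. The control group held 3 arrays, and the floxed group held 3 arrays from mice whose beta-catenin alleles were floxed and which were positive for the Vav-Cre transgene. The Vav promoter drives Cre recombinase in blood-forming cells from early life, so the deletion is not restricted to stem cells or to adult animals. The genotype of the controls beyond their name, strain, age, sex and any pooling of animals are not given in the sources used here, so the spread between replicates may be technical. Values are log2 expression, and a difference is always the floxed mean minus the control mean on that scale, so that 1 stands for a doubling. In bulk RNA of this kind, fewer cells of a type and less RNA per cell cannot be told apart.

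The targeted gene was lowered on part of its length. Of 16 Ctnnb1 probe sets tested, 5 fell in the floxed arrays by differences from -6.90 to -2.51 log2 (limma adjusted p from 1.19e-05 to 0.00137), and 11 did not pass. Array medians ran from 7.56 to 7.65 log2, the lowest on control replicate 3. Among all kept single-gene probe sets, control replicate 3 was the lowest array for 34.7% and the highest for 11.6%. Control arrays correlated with each other at 0.88 to 0.93 across the genes tested, which are not independent replicates, floxed arrays with each other at 0.96 to 0.97, and control with floxed arrays at 0.91 to 0.96. When limma estimated array weights, control replicates 1 and 3 had the lowest, 0.27 and 0.40, and control replicate 2 the highest, 3.37. Control replicates 1 and 3 thus both stood apart. The gate genes Kit and Ly6a, which encode c-Kit and Sca-1, had differences of -0.10 and -0.02, and Cd34 RNA averaged 12.68 log2 in controls against 12.65 log2 in floxed arrays. The Ly6a value was 11.89 log2 on control replicate 1 and between 10.93 and 11.56 log2 on the other arrays. The stem cell genes Hlf, Meis1 and Gata2 had differences of -0.02, 0.02 and -0.0040. Of 9 stem cell genes measured, Kit and Ly6a among them, 5 were higher and 4 lower, with a median of 0.02. The largest differences in the list were those of Slamf1 (0.23), Procr (0.14) and Mecom (0.12), and 0 passed. Cd34 RNA thus stood high on all 6 arrays, between 12.62 and 12.70 log2 in a table that reaches 14.53, which goes against the labelled CD34-negative sort at the level of RNA. The sort reads surface protein, which was not measured here.

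To show what lies ahead of the genes with the largest differences, the 250 bases before the annotated start of Prdx1, Prdx3 and Prdx4 are given 5′ to 3′ from RefSeq, assembly GRCm38.p6, with matches to the motifs searched in capitals. Promoters of 5 of the 6 members were matched in that table by symbol, and Prdx6 was the other.
Prdx1, chr4:116685349-116685598, plus strand: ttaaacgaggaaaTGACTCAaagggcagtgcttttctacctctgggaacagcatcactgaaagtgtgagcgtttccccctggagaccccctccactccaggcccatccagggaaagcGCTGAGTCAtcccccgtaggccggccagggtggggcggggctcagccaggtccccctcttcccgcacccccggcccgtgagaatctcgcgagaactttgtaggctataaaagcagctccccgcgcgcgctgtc
Prdx3, chr19:60874539-60874788, minus strand: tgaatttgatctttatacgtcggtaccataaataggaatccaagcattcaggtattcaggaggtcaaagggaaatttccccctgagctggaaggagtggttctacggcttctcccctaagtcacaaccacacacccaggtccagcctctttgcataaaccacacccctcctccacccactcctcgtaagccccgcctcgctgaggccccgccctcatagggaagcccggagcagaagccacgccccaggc
Prdx4, chrX:155338461-155338710, minus strand: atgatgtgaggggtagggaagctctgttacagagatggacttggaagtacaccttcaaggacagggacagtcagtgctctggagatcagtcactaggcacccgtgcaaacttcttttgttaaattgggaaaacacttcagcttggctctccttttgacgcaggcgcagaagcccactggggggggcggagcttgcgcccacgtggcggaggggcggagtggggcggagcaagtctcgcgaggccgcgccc
The motifs searched on both strands were the core of the antioxidant response element bound by NRF2 (TGACNNNGC), the AP-1 site (TGACTCA), a FoxO site (TGTTTAC) and a TCF/LEF site (ATCAAAG). The Prdx1 window held 1 antioxidant response element core, read on the antisense strand from 133 to 125 bases before the start, and the AP-1 match from 131 to 125 bases lies inside it. A further AP-1 match stood from 237 to 231 bases before the start. None of the 4 motifs was found in the windows of Prdx2, Prdx3, Prdx4 and Prdx5. Of the 32851 promoter windows of the table, 10.2% held the antioxidant response element core, 4.46% the AP-1 site, 3.17% the FoxO site and 3.21% the TCF/LEF site. A match is a run of letters and not a measured binding site.

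Prdx1, Prdx3 and Prdx4, of the typical 2-Cys kind, lay higher in the floxed arrays by 0.47 to 0.50 log2, and Prdx2, also of that kind, Prdx5 and Prdx6 had differences near 0. Each array gave a gene 1 value, the median of its kept probe sets, and a probe set was kept where its mean over the 6 arrays reached 7.60 log2, the median of all such means. All 6 members had kept probe sets, 34 of 42 in all. The median difference of the 6 members was 0.26, beside 0.02 over all 14586 genes tested, and it was 0.13 without control replicate 3. No member lay near 0.26, which is midway between Prdx2 at 0.06 and Prdx1 at 0.47. Without control replicate 3 the middle members were Prdx2 at 0.0091 and Prdx3 at 0.26, while Prdx1 had 0.52. The floxed mean was above the control mean for 5 of the 6, beside 54.2% of all genes, and for Prdx5 that sign was kept in only 8 of 15 alternatives, with values down to -0.08 with no filter and -0.07 without control replicate 3. Groups did not overlap for 2 of the 6, Prdx1 and Prdx4, both with the floxed arrays above, beside 5.57% of all genes in that direction, and 0 members had the floxed arrays below, beside 2.87%. In the limma fit across all genes 0 of 14586 (0%) passed an adjusted p of 0.05, so no member did, and 540 genes (3.7%) had an unadjusted p under 0.05. Because the members were chosen on this contrast, nothing is read from these shares.

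**Figure D1:**
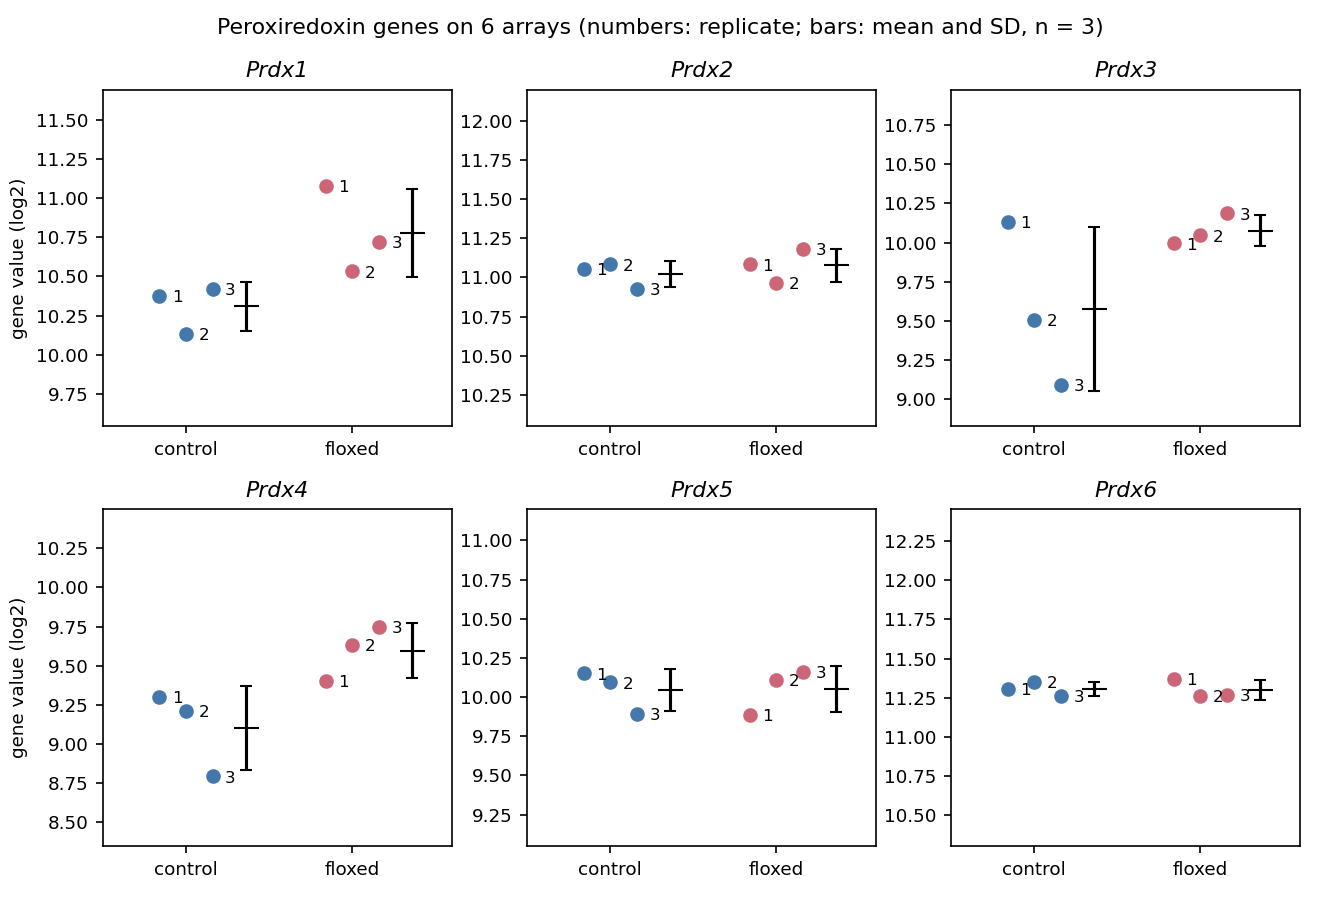
Gene values of the 6 peroxiredoxins in log2 on the vertical axis, by group on the horizontal axis, with each point an array numbered by replicate and bars for the mean and SD (n = 3). Every panel spans the same log2 range. The floxed points of Prdx1 and Prdx4 all lie above the control points, those of Prdx3 lie among or above them, and the other panels overlap.

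Prdx1, an abundant cytosolic enzyme of the 2-Cys kind, had 10.37, 10.13 and 10.42 log2 on the control arrays against 11.08, 10.53 and 10.72 log2 on the floxed arrays. All floxed arrays were above all controls, and floxed replicate 1 was the highest. The means were 10.31 ± 0.15 (SD, n = 3) and 10.78 ± 0.28 (SD, n = 3), a difference of 0.47 (SE 0.16) or 1.38-fold. Only 0.11 log2 separated the highest control from the lowest floxed array. With 1 array left out the Prdx1 difference ran from 0.32, without floxed replicate 1, to 0.59, without floxed replicate 2.

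Prdx2, the cytosolic enzyme known from red cells, had 11.05, 11.08 and 10.93 log2 in controls against 11.08, 10.97 and 11.18 log2 in floxed arrays. The groups overlapped, with the lowest value on control replicate 3 and the highest on floxed replicate 3. Its difference was 0.06 (SE 0.11), and it turned to -0.01 with array weights. The difference between Prdx2 and the other 2-Cys members was not tested.

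Prdx3, the mitochondrial member, had 10.13, 9.51 and 9.09 log2 on the control arrays against 9.99, 10.05 and 10.19 log2 on the floxed arrays. The groups overlapped, because control replicate 1 lay above floxed replicates 1 and 2. Control values spread over more than a log2 unit, with an SD of 0.52 (n = 3) around 9.58, against an SD of 0.10 (n = 3) around 10.08 in floxed arrays. The difference was 0.50 (SE 0.22), the largest of the family in size and in SE. Leaving out control replicate 3 gave 0.26 and leaving out control replicate 1 gave 0.78, the widest range of any member when 1 array was left out.

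Prdx4, which acts on peroxide made during protein folding in the endoplasmic reticulum, had 9.30, 9.21 and 8.79 log2 in controls against 9.40, 9.64 and 9.75 log2 in floxed arrays. All floxed arrays were above all controls, with 0.10 log2 between the highest control and the lowest floxed array. The means were 9.10 ± 0.27 (SD, n = 3) and 9.60 ± 0.18 (SD, n = 3), a difference of 0.49 (SE 0.17) or 1.41-fold. Without any 1 array the Prdx4 difference stayed between 0.47 and 0.59. The filter was applied anew each time, and the kept Prdx4 probe sets changed in some of these runs. The 0.47, without control replicate 3, was that of probe set 10607480 alone. This range thus does not show how far the Prdx4 values above depend on each array.

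Prdx5, the atypical member found in mitochondria, peroxisomes and cytosol, had 10.15, 10.09 and 9.89 log2 in controls against 9.89, 10.11 and 10.16 log2 in floxed arrays. Its difference of 0.0062 (SE 0.14) had no settled sign, since it ran from -0.08 with no filter to 0.13 with a filter at the 75th percentile. Prdx6, the 1-Cys member that also has phospholipase activity, had 11.30, 11.35 and 11.26 log2 in controls against 11.37, 11.26 and 11.27 log2 in floxed arrays. Its difference was -0.0048 (SE 0.10), and over 15 alternatives it stayed between -0.05 and 0.02, turning sign in some of them. The 6 Prdx6 values lay within a narrower range than those of any other member.

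The probe sets behind these medians did not all differ alike. Of the 34 kept probe sets 26 were higher in floxed arrays and 8 lower, beside 58.8% higher of all 120788 kept probe sets. Floxed arrays were all above controls on 4 of the 34, beside 6.46%, and all below on 1, beside 2.98%. In the limma fit across all kept probe sets 5 (0.00414%) passed, all 5 of them of Ctnnb1. Control replicate 3 was the lowest array on 18 of the 34 (52.9%, beside 34.7% of all), and floxed replicate 3 the highest on 17 (50%, beside 11.7%).

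**Figure D2:**
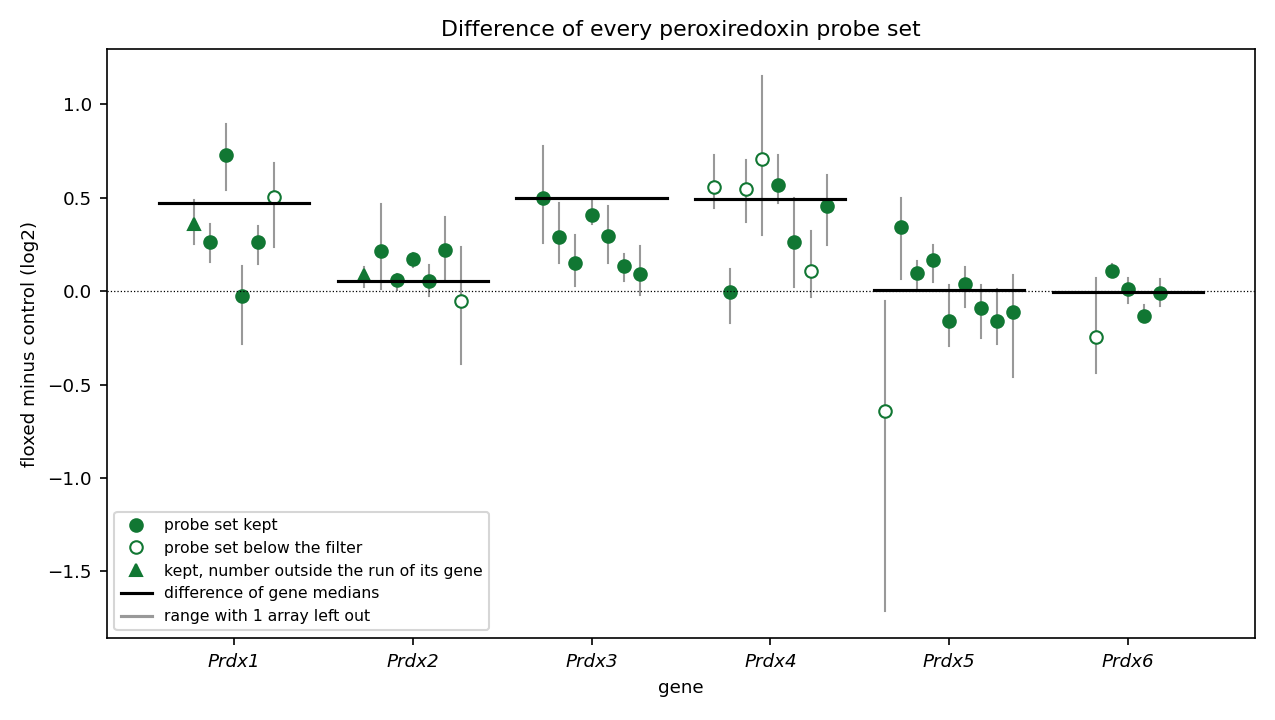
Floxed minus control difference in log2 of each of the 42 probe sets on the vertical axis, grouped by gene. Filled symbols are kept probe sets, open circles lie below the filter, triangles are the 2 kept probe sets numbered outside the run of their gene, grey lines give the range with 1 array left out, and black lines the difference of gene medians. All 7 probe sets of Prdx3 lie above 0, and the black line of Prdx3 runs through the highest of them.

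For Prdx1, 4 of 5 kept probe sets were higher and their differences ran from -0.03 to 0.73. The largest was that of probe set 10507330, with 10.37, 10.10 and 9.67 log2 in controls against 11.08, 10.53 and 10.72 log2 in floxed arrays. That probe set gave the Prdx1 median on every floxed array but on only 1 control array, control replicate 1, and 2 other probe sets gave it on the other controls. Prdx1 probe set 10507329 had a difference of 0.26, and the mean of the 5 probe sets gave 0.32 in place of 0.47. Prdx1 probe set 10436049, 1 of the 4 counted as higher, had 0.36. It lies outside the run of numbers of its gene, between probe sets of Gm7275 and Dppa4. In RefSeq no peroxiredoxin gene or pseudogene was found between these neighbours, so its signal cannot be assigned to Prdx1 with certainty. Without this probe set the Prdx1 difference was 0.46.

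Prdx2 had 6 kept probe sets, all of them higher, from 0.06 to 0.22. Probe set 10573486 was the Prdx2 probe set with floxed above control on every array, at 12.69, 12.54 and 12.62 log2 in controls against 12.78, 12.74 and 12.83 log2 in floxed arrays. Its difference was 0.17 with an SD of 0.08 in controls and 0.05 in floxed arrays (n = 3 each), while the median over the gene gave 0.06 and the mean of its probe sets 0.13. Prdx2 probe set 10357000 is numbered between those of Pam and Rnf152. In RefSeq the pseudogene Prdx2-ps1 stands between these neighbours, so its signal of 11.94 log2 in controls against 12.02 log2 in floxed arrays cannot be assigned to the gene or the pseudogene. Without it the Prdx2 difference was 0.06.

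For Prdx3, 7 of 7 probe sets were kept and 7 were higher, from 0.09 to 0.50. Probe set 10468870 gave the gene median on all 6 arrays, so the Prdx3 value above is the value of that probe set alone, and it is the largest of the 7 differences. The mean of the 7 gave 0.27. Floxed arrays stood clear of controls on probe set 10468873, with controls from 8.99 to 9.11 log2 against 9.51, 9.27 and 9.53 log2 in floxed arrays, a difference of 0.40 that stayed between 0.36 and 0.49 with 1 array left out. Floxed replicate 3 was the highest array on all 7. The 2 smallest differences of the 7 were 0.13 and 0.09.

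Prdx4 had 8 probe sets, of which 4 were kept, and 7 of the 8 were higher. The exception, probe set 10607477, stood at 10.16 log2 in controls against 10.15 log2 in floxed arrays, a difference of -0.0044. The 3 other kept probe sets had 0.26, 0.46 and 0.57, and the 4 below the filter had 0.11 to 0.71. With a filter at the 75th percentile of probe set means the Prdx4 difference was 0.23 and that of Prdx3 0.15, while Prdx1 kept 0.47. The Prdx3 and Prdx4 differences were thus smaller under the stricter filter, and that of Prdx1 was not.

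Prdx5 and Prdx6 were mixed at the level of probe sets. Of 8 kept Prdx5 probe sets 4 were higher and 4 lower, from -0.16 to 0.34, and the 1 below the filter had -0.64 with an SD of 1.86 in floxed arrays. A further 4 probe sets annotated to both Prdx5 and Trmt112, a methyltransferase cofactor gene, were left out, and their differences ran from -0.17 to 0.24. Of 4 kept Prdx6 probe sets 2 were higher and 2 lower, from -0.13 to 0.11. Probe set 10359426 of Prdx6 was the 1 probe set of the family with all floxed arrays below controls, at 11.73, 11.55 and 11.55 log2 in controls against 11.49, 11.50 and 11.43 log2 in floxed arrays.

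Across arrays, the members did not share 1 profile. Centred on its own mean, Prdx3 stood at -0.73 on control replicate 3 and Prdx4 at -0.55, while Prdx1 was lowest on control replicate 2, at -0.41. Prdx1 was highest on floxed replicate 1, at 0.54, and Prdx3 and Prdx4 on floxed replicate 3, at 0.36 and 0.40. Averaged over the 6 members, the deviations were 0.03, -0.12 and -0.29 on the control arrays against 0.12, 0.07 and 0.19 on the floxed arrays. The median of all genes was 0.0027, 0.03 and -0.08 on the same control arrays against -0.02, 0.02 and 0.03 on the floxed arrays. The mean of the members on control replicate 3 rested on Prdx3 and Prdx4, and Prdx6 stood at -0.04 there.

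Likeness of profiles was measured as the root mean square distance between centred log2 values over the 6 arrays. By this measure the member nearest to Prdx3 was Prdx4, at 0.19, with rank 255 among 14585 genes, and Prdx3 had rank 510 for Prdx4. For Prdx1 the nearest member was Prdx2 at 0.29, with rank 3021. The named genes nearest to Prdx3 were Cwc15 (0.06) and Prcc (0.07), to Prdx4 Slc2a5 (0.05) and Slirp (0.06), and to Prdx1 Cbx8 (0.08) and Rnaseh1 (0.09). Nxn and Ywhaz were nearest to Prdx2, at 0.02 and 0.02. Tspo (0.02) and Srf (0.03) were nearest to Prdx5, and Pdpk1 (0.02) and Invs (0.02) to Prdx6. These distances describe 6 arrays in 2 groups and say nothing of shared control.

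The genes that work with peroxiredoxins were counted in 7 lists. In the limma fit across all genes 0 of 51 measured partner genes passed, beside 0% of all genes (smallest adjusted p = 0.999), and 1 had an unadjusted p under 0.05. Of the 51, 31 were higher and 20 lower, with a median of 0.05 beside 0.02 over all genes. Groups did not overlap for 3 of the 51, all with the floxed arrays above, beside 5.57% of all genes. The sources of peroxide and superoxide had the lowest median of the 7 lists, -0.11, and oxidative folding in the endoplasmic reticulum the highest, 0.13.

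**Figure D3:**
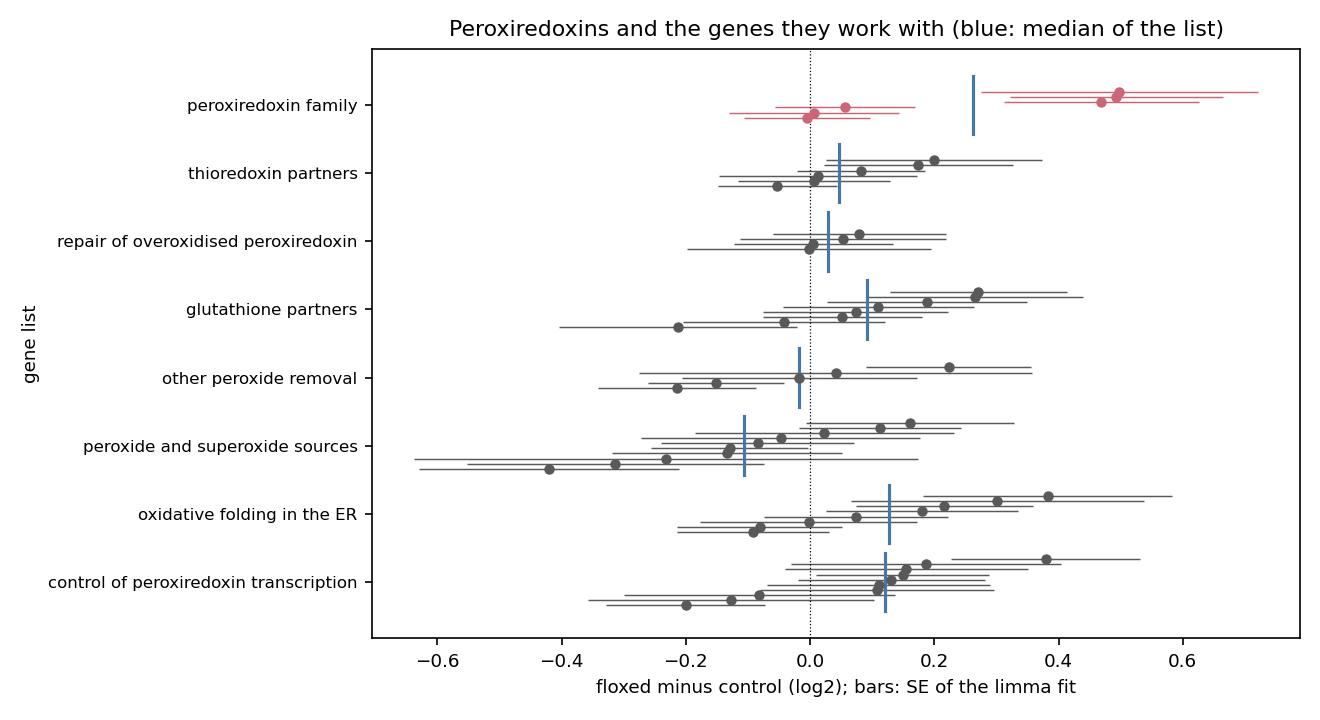
Floxed minus control difference in log2 on the horizontal axis for the peroxiredoxins and each gene of the 7 partner lists, with the SE of the limma fit (3 arrays per group) as bars and the list median as a blue line. Prdx1, Prdx3 and Prdx4 lie at 0.47 to 0.50, to the right of every partner gene.

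Thioredoxin and its reductases recharge the 2-Cys members. Of 6 such genes 5 were higher, with a median of 0.05 and 0 past the threshold. The thioredoxin gene Txn1 averaged 13.22 ± 0.19 (SD, n = 3) in controls against 13.30 ± 0.07 (SD, n = 3) in floxed arrays, and the mitochondrial Txn2, which serves Prdx3, had a difference of 0.0062. The reductase genes Txnrd1 and Txnrd3 had 0.17 and 0.20. Txnip, whose product binds thioredoxin, had -0.05. Sulfiredoxin, the enzyme that rescues overoxidised 2-Cys peroxiredoxins, is encoded by Srxn1, which had 0.05 (SE 0.17) and turned to -0.25 with a filter at the 75th percentile. Of the 4 genes of this repair list 3 were higher and 0 passed, with Sesn1 at 0.08.

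Glutathione partners, which serve Prdx6 among others, were higher for 6 of 8 genes, with a median of 0.09 and 0 passing. Gstp1, the glutathione transferase that recharges Prdx6, had 0.07 and turned to -0.06 without control replicate 3. The glutaredoxin gene Glrx2 (0.27) and the transferase gene Gstp2 (0.26) had groups that did not overlap. Gstp2 rested on 1 kept probe set, dim at a control mean of 7.65 log2, and its difference shrank to 0.05 with no filter. Other enzymes of peroxide removal were higher for 2 of 5 genes, with 0 passing. Catalase (Cat) had -0.21 (SE 0.13), below 0 in each of the 16 settings run, and Gpx4, which reduces lipid peroxides, had 0.22 (SE 0.13), above 0 in each of them.

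Genes of peroxide and superoxide sources were lower for 7 of 10, with 0 passing. The oxidase genes Duox1 and Xdh had -0.42 (SE 0.21) and -0.31 (SE 0.24). Duox1 shrank to -0.08 with no filter, and Xdh turned to 0.14 with a filter at the 75th percentile. In oxidative folding, where Prdx4 works, 5 of 8 genes were higher and 0 passed. Erp44, which retains folding enzymes and Prdx4 in the early secretory pathway, had 0.38 (SE 0.20), and the disulfide isomerase gene Pdia3 had 0.30 (SE 0.24). Erp44 fell to 0.04 with a filter at the 75th percentile, and Pdia3 to 0.04 without floxed replicate 1. For both genes control replicate 1 lay above floxed replicates 2 and 3. The oxidase genes Ero1a and Ero1b, which make peroxide in that compartment, had 0.07 and -0.0024. Regulators and targets on the list for control of peroxiredoxin transcription were higher for 7 of 10, with 0 passing. Keap1, the inhibitor of NRF2, had 8.47 ± 0.15 (SD, n = 3) in controls against 8.85 ± 0.06 (SD, n = 3) in floxed arrays, a difference of 0.38 with groups that did not overlap. With a filter at the 75th percentile the Keap1 difference was 0.09. Nfe2l2, which encodes NRF2, had 0.11 and turned to -0.09 without control replicate 3, and Foxo3 had -0.20.

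Markers of other blood cells varied between arrays as well. Of 9 erythroid markers measured 8 were lower in floxed arrays, and the mean deviation of the list ran from -0.08 to 0.40 log2 in controls and from -0.31 to 0.17 in floxed arrays. Car1, a carbonic anhydrase gene, averaged 13.10 log2 in controls against 12.96 log2 in floxed arrays. Granulocyte and macrophage markers were lower for 10 of 11, with list means from -0.37 to 0.53 log2 in controls and from -0.43 to 0.22 in floxed arrays, and Ngp at 11.85 log2 and 10.97 log2. In both of these lists 0 genes passed, while 3 of 9 erythroid and 2 of 11 granulocyte and macrophage genes had an unadjusted limma p under 0.05, beside 3.7% of all genes, and the list medians were -0.32 and -0.33. Epb42, a red cell membrane gene, had all floxed arrays below all controls, with a difference of -0.57 (SE 0.20), beside 2.87% of all genes, and the neutrophil collagenase gene Mmp8 had -1.03 (SE 0.36). Of B cell markers 3 of 7 were higher. The list mean was -0.95 log2 on control replicate 3, the array that was also lowest for Prdx3 and Prdx4. It was 0.78 on control replicate 1, the control that was highest for both. For Prdx1, control replicate 3 was the highest control. The B cell means of floxed replicates 1 and 2, -0.28 and -0.14, lay below the 0.21 of control replicate 2. Prdx3 and Prdx4 were nonetheless higher on those floxed arrays than on control replicate 2. T and NK cell markers were higher for 1 of 5 (-0.35 to 0.15 log2 in floxed arrays and 0.06 to 0.15 in controls). The higher marker was Nkg7, the brightest of the list, with a control mean of 10.85 and a floxed mean of 10.92. The other 4 were lower, and the largest differences were those of Cd4 (-0.63) and Prf1 (-0.43). Markers of stroma and endothelium were higher for 2 of 8 (-0.10 to 0.02 in floxed arrays and -0.11 to 0.15 in controls), with Pecam1 at 9.71 and 9.69 log2. The part of other cells in the peroxiredoxin differences was not tested.

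The sign of the larger differences held under every setting run, all of which reuse the same arrays. Prdx1, Prdx3 and Prdx4 were higher in floxed arrays in 16 of 16 settings, the reported one included. The ranges were 0.32 to 0.59 for Prdx1, 0.15 to 0.78 for Prdx3 and 0.23 to 0.59 for Prdx4. Leaving out the eBayes trend and adding the replicate block cannot move a difference of means here, and both repeated the reported values. Because these genes were known to be higher in this contrast, nothing is read from the held sign. Without control replicate 1 the differences of Prdx1, Prdx3 and Prdx4 were 0.50, 0.78 and 0.59. Without control replicate 3 they were 0.52, 0.26 and 0.47. That last Prdx4 value rests on other kept probe sets than the reported one, because the filter was applied anew. It does not show how far the reported Prdx4 difference depends on control replicate 3. For Prdx2 and Prdx6 the differences were 0.07 and -0.0050 without control replicate 1, and 0.0091 and -0.03 without control replicate 3. The number of members higher ran from 3, with array weights, to 6, without control replicate 2.

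**Figure D4:**
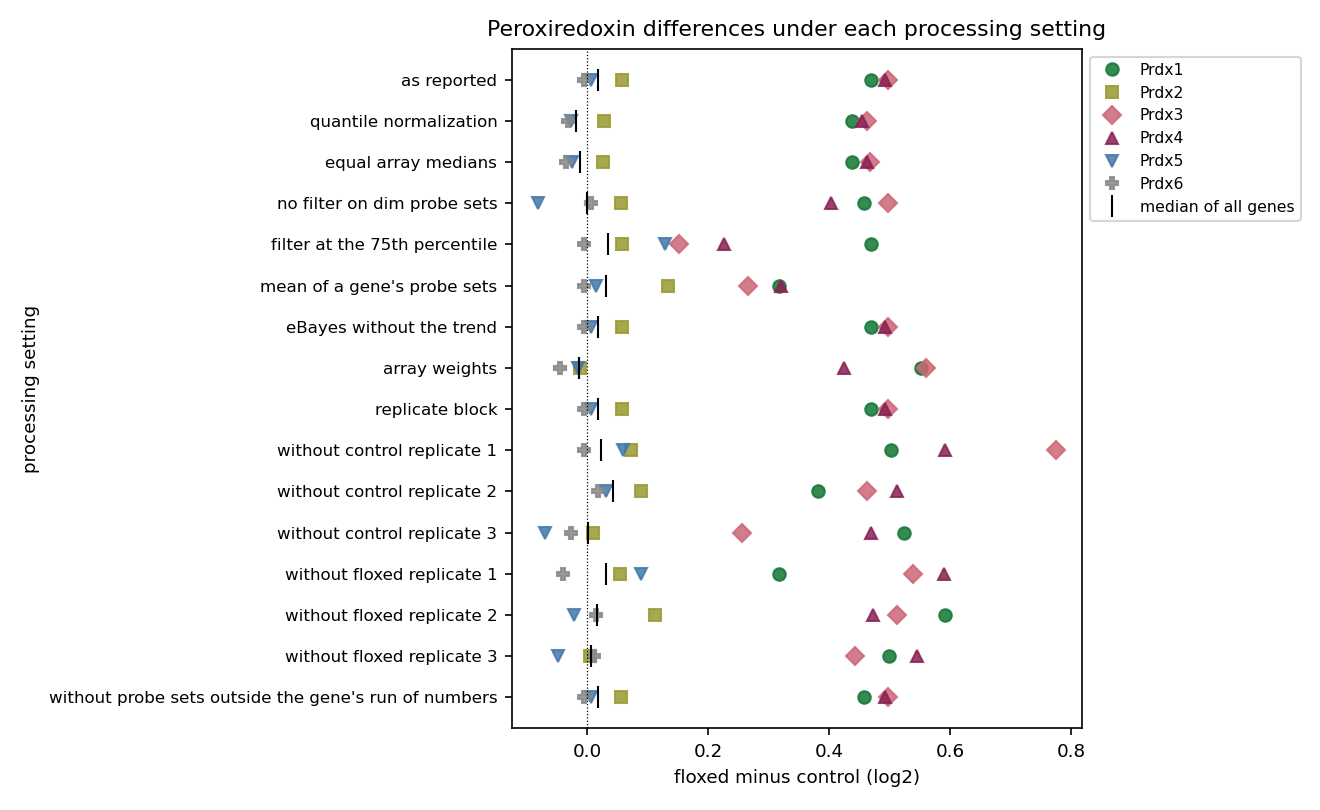
Floxed minus control difference in log2 on the horizontal axis for each peroxiredoxin under each processing setting on the vertical axis, with the median of all genes tested as a black tick. Prdx1, Prdx3 and Prdx4 stay to the right of the tick under every setting shown, and Prdx3 moves most, between 0.15 and 0.78.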

How the data were processed

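The authors' deposited table holds log2 values of 241576 probe sets on 6 arrays, from 2.44 to 14.53. The base was taken from this range, and MAS5 is named without a role in the submitters' processing notes. Further steps of the authors are not given in the sources used here, and no normalization was added. An older platform annotation named 1 gene for 212097 probe sets, 4475 had several genes and 25004 had none. RefSeq GRCm38.p6 updated 2742 symbols through synonyms. Probe sets were kept at a mean of 7.60 log2 (120788), and a gene was the median of its kept single-gene probe sets (14586 genes). The fit used limma 3.58.1 in R 4.3.3 (lmFit, eBayes with trend). P-values were two-sided and adjusted by Benjamini-Hochberg across every gene, or every kept probe set. The fit was tested on simulated data, where 66.4% of genes changed by 1 log2 were recovered, with 3.8% false calls. Smaller changes, such as those of the members, were not simulated. The number of arrays limits the precision.

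Members, partner lists and markers were chosen with earlier results of these data known. Named genes were the members, the 2 partner genes of each list with the largest absolute difference, textbook partners, gate genes, the brightest marker of a list and the 2 nearest profiles per member; further genes were named after their values were seen. List genes below the filter or without a single-gene probe set were not analysed here. Alternatives changed normalization, filter, gene summary, variance model, array weights and pairing, and left out each array. With an array left out the filter was applied anew, so the kept probe sets of a gene could change. Leaving out probe sets numbered outside their gene's run was chosen after seeing the data.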

Additional observations from a re-analysis of the deposited data

How the results depend on the processing

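No gene passed as reported; 2 passed with no filter, 1 with the mean of a gene's probe sets and 404 with array weights, and without 1 array the count ran from 0 to 2, the 2 being without control replicate 1. Of single probe sets 5 passed as reported, 4 to 5 without 1 array, and 0 with a filter at the 75th percentile. That filter acts on the mean over all 6 arrays, and the 5 passing probe sets were all of Ctnnb1. These averaged 10.39 to 11.91 log2 in controls against 4.44 to 7.88 log2 in floxed arrays. Low floxed values pull the mean down, so this filter can remove such probe sets whatever their difference. The cause of the other changes was not tested. The number of partner genes past the threshold was 0 in every setting run, array weights included. The median difference of the 6 members, 0.26, was 0.14 with a filter at the 75th percentile, where the brighter probe sets alone remain, and ran from 0.13, without control replicate 3, to 0.29, without floxed replicate 2. Deviations of same-numbered arrays correlated at 0.20, -0.0036 and -0.24, and 1 of 3 correlated best with its own number. So few correlations cannot decide whether the replicate numbers pair the samples. With the replicate block 0 genes and 5 probe sets passed, and the median of the members was 0.26. Detection calls were not used here, so signal over background is unknown for dim probe sets, and 3 arrays per group limit every value.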
